A study of Mus musculus with 8 samples.

Results

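The E2F transcription factors, their dimerization partner DP1 and the pocket proteins were followed across 4 groups of 32D cells. The 10 genes E2f1, E2f2, E2f3, E2f4, E2f7, E2f8, Tfdp1, Rb1, Rbl1 and Rbl2 were taken by name from 56748 genes listed in the expression table. 32D is an immortalized murine myeloblast-like line from bone marrow that depends on interleukin-3. All cells had been transduced with murine Jak2WT or with Jak2V617F, the mutant kinase of myeloproliferative neoplasms. In the GLUT1/3 dKO clones, Slc2a1 and Slc2a3, which encode the glucose transporters GLUT1 and GLUT3, had been targeted with CRISPR-Cas9, whereas GLUT1/3 WT clones kept both transporters. Each of the 4 groups (Jak2WT GLUT1/3 WT, Jak2WT GLUT1/3 dKO, Jak2V617F GLUT1/3 WT and Jak2V617F GLUT1/3 dKO) comprised 2 libraries, from clones numbered 1 and 3. Before lysis, all clones were kept for 24 h with 5 mM glucose, 1 mM glutamine, 2 ng/ml interleukin-3 and no added pyruvate. Poly(A) RNA was sequenced and given as FPKM, the fragments on a gene per kilobase of its length, scaled to the fragments of the library. A group of 2 clones represents those clones. The p-values rest on 1 estimate per gene of the spread between clones, shared by the 4 groups and moderated over genes.

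E2F factors bind DNA together with a DP protein and control genes of DNA replication and of their own network. E2f1, E2f2 and E2f3 are the activating members, E2f4 acts mainly as a repressor bound to pocket proteins, and the atypical E2f7 and E2f8 repress without a DP partner. The pocket proteins pRB (Rb1), p107 (Rbl1) and p130 (Rbl2) hold E2Fs inactive until cyclin-dependent kinases phosphorylate them. With p107 or p130, E2F4 and DP1 join the MuvB core to form the DREAM complex, which silences cell cycle genes in resting cells.

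Several of these genes are themselves known E2F targets, so promoter windows from RefSeq (GRCm38.p6, 250 bases before to 50 after a start site) were searched for the E2F motif. It was spelled TTTGGCGC, TTTCGCGC, TTTGCCGC or TTTCCCGC on either strand. Windows were held for 8 of the 10 genes, and E2f4 and Rb1 had none. The motif was present for E2f2, E2f3, E2f7, Rbl1 and Tfdp1, thus 5 of the 8 genes. The 8 genes had 11 windows, and a gene with more windows had more chances of a match. Of all 32851 windows, 2.26% held the motif. These 30-base stretches, printed in the direction of the gene with the motif in capitals, show the match for each of the 5:
E2f2: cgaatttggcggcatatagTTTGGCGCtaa
E2f3: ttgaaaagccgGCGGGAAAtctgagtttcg
E2f7: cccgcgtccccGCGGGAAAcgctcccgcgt
Rbl1: aagaaggcgatTTTCGCGCgctttgtcgcg
Tfdp1: gggcgccgaagGCGCGAAAaggcgcgcagg
Each promoter window matched GRCm39 at a single place. They are at chr4:135899605-135899634 (plus strand, E2f2), chr13:30170039-30170068 (minus strand, E2f3) and chr10:110581091-110581120 (plus strand, E2f7), and at chr2:157046454-157046483 (minus strand, Rbl1) and chr8:13388697-13388726 (plus strand, Tfdp1). In E2f3, E2f7 and Tfdp1 the motif is read on the opposite strand. The first base of the motif lay at -11 from the start site in E2f3, -198 in E2f7, -18 in Rbl1 and 39 in E2f2. For E2f2 that is inside the first exon of GENCODE, while the expression table places the start of the gene further downstream. Tfdp1 has a pair of annotated starts, from which its motif lay at -43 and -96. The cell cycle homology region motif (TTTGAA or TTCGAA, either strand) was found for E2f2, E2f3, E2f8 and Rbl2 and in 19.2% of all windows. For E2f2 this match lay in another window, downstream of the one with the E2F motif. For E2f1, 290 of the 300 bases of the RefSeq window are coding sequence by GENCODE, so its lack of a match describes the inside of the gene. A match describes the letters only, and no binding was measured.

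Recovered reads on genes ranged from 16846011 to 48884329 per library, and each of the 10 genes had between 318 and 21048 reads in a library. All 10 passed the expression filter (2 or more libraries with an FPKM of 1 or above), as did 11818 genes in all. Slc2a1 transcript was lower in dKO than in GLUT1/3 WT clones by -2.20 (Jak2WT) and -1.90 (Jak2V617F) on the log2(FPKM + 1) scale. For Slc2a3 the difference was -2.39 in Jak2V617F (limma, adjusted p = 0.0115) and -1.71 in Jak2WT, which did not pass (limma, adjusted p = 0.0612). The first call was lost without Jak2V617F GLUT1/3 WT clone 1 (adjusted p = 0.0602) or Jak2V617F GLUT1/3 dKO clone 3 (0.0539), both by limma. In Jak2WT, Slc2a3 passed at the same total FPKM (limma, adjusted p = 0.0498), with voom on recovered reads (0.0199) and without Jak2WT GLUT1/3 dKO clone 3 (-2.49, adjusted p = 0.0358), and was at -0.92 without Jak2WT GLUT1/3 dKO clone 1. Of the markers that define myeloid progenitors, Kit and Cebpa were listed at 0 in all 8 libraries and Mpo was below 0.1 FPKM, while Csf2rb and Spi1 were present. Summed FPKM of 9 erythroid markers was 94.0 to 112 in Jak2WT GLUT1/3 WT, 246 to 291 in Jak2WT GLUT1/3 dKO, 553 to 910 in Jak2V617F GLUT1/3 WT and 2582 to 4679 in Jak2V617F GLUT1/3 dKO. The 10 myeloid progenitor markers summed to 196 to 221, 144 to 179, 165 to 168 and 80.3 to 81.7 FPKM in the same order. The 4 megakaryocyte markers summed to 63.2 to 63.7, 85.3 to 90.2, 177 to 189 and 187 to 240 FPKM. Csf2rb made up most of the myeloid progenitor sum in every library. It was at 190 and 162 FPKM in Jak2WT GLUT1/3 WT and 55.4 and 48.9 in Jak2V617F GLUT1/3 dKO. In the latter, Il3ra was higher (8.89 and 7.99 against 6.83 and 6.61 FPKM), Spi1 was lower and Prtn3 overlapped. Hbb-bs and Hba-a1 made up most of the erythroid sum in Jak2V617F GLUT1/3 dKO, and Itga2b most of the megakaryocyte sum in every library. Lymphoid markers stayed below 1 FPKM in sum in every library. The part of these shifts in the results below was not tested, and in bulk RNA more cells in a state and more RNA per cell cannot be told apart.

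Among the activating E2Fs, transcript levels were highest in the Jak2V617F GLUT1/3 dKO clones for E2f1 and E2f2, but not for E2f3. E2f1 (chr2:154401327-154411812) reached 10.4 and 10.6 FPKM in Jak2V617F GLUT1/3 dKO clones 1 and 3, against 4.71 and 4.20 in Jak2V617F GLUT1/3 WT, 5.65 and 7.04 in Jak2WT GLUT1/3 WT and 5.33 and 6.41 in Jak2WT GLUT1/3 dKO. The Jak2V617F GLUT1/3 dKO clones thus lay above all other libraries, the Jak2V617F GLUT1/3 WT clones below all others, and the Jak2WT groups overlapped. E2f2 (chr4:135899705-135923368), an activating E2F also known from erythroid maturation, was at 26.1 and 14.2 FPKM in Jak2V617F GLUT1/3 dKO. In the other groups it was at 6.67 and 5.26 (Jak2V617F GLUT1/3 WT), 5.67 and 5.42 (Jak2WT GLUT1/3 WT) and 4.94 and 5.42 FPKM (Jak2WT GLUT1/3 dKO), which overlapped. Clone 1 and clone 3 of Jak2V617F GLUT1/3 dKO were further apart for E2f2 than for any other of the 10 genes, yet both were above the 6 remaining libraries. E2f3 (chr13:30090558-30170046) was at 9.20 and 12.1 FPKM in Jak2V617F GLUT1/3 dKO, 8.64 and 9.17 in Jak2V617F GLUT1/3 WT, 10.6 and 10.9 in Jak2WT GLUT1/3 WT and 12.0 and 12.3 in Jak2WT GLUT1/3 dKO. Its Jak2V617F GLUT1/3 dKO clones spanned the values of Jak2WT GLUT1/3 WT.

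E2f4 (chr8:106024295-106032002), the repressive E2F, was the most abundant of the 6 E2F genes per length in all 8 libraries. It was at 50.4 and 57.2 FPKM in Jak2WT GLUT1/3 WT, at 55.4 and 55.1 in Jak2WT GLUT1/3 dKO, 47.2 and 40.7 in Jak2V617F GLUT1/3 WT and 48.2 and 41.6 in Jak2V617F GLUT1/3 dKO. Within each background, WT and dKO clones overlapped, while the 4 Jak2V617F clones lay below the 4 Jak2WT clones. Tfdp1 (chr8:13388751-13428448), which encodes the DNA-binding partner DP1, was at 82.4 and 92.5 FPKM in Jak2WT GLUT1/3 WT and 111 and 116 in Jak2WT GLUT1/3 dKO. It was at 59.6 and 51.8 FPKM in Jak2V617F GLUT1/3 WT and 85.9 and 90.6 in Jak2V617F GLUT1/3 dKO. Tfdp1 was therefore lowest in the Jak2V617F GLUT1/3 WT clones, highest in Jak2WT GLUT1/3 dKO, and overlapping in the other pair of groups.

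Both atypical E2Fs were lowest in the Jak2V617F GLUT1/3 WT clones. E2f7 (chr10:110581300-110623245) was at 4.34 and 3.81 FPKM there, at 12.1 and 11.3 in Jak2V617F GLUT1/3 dKO, at 5.28 and 5.94 in Jak2WT GLUT1/3 WT and at 4.97 and 6.02 in Jak2WT GLUT1/3 dKO. E2f8 (chr7:48516177-48531344) was at 9.12 and 8.10 FPKM in Jak2V617F GLUT1/3 WT, 22.5 and 19.6 in Jak2V617F GLUT1/3 dKO, 16.3 and 17.4 in Jak2WT GLUT1/3 WT and 16.5 and 22.8 in Jak2WT GLUT1/3 dKO. For E2f7, only the Jak2WT groups overlapped, whereas E2f8 in Jak2V617F GLUT1/3 dKO also overlapped with Jak2WT GLUT1/3 dKO.

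The pocket protein genes followed separate orders. Rb1 (chr14:73421113-73563262) was at 18.4 and 17.1 FPKM in Jak2WT GLUT1/3 WT, at 11.9 and 12.3 in Jak2WT GLUT1/3 dKO, 24.5 and 21.3 in Jak2V617F GLUT1/3 WT and 24.7 and 19.0 in Jak2V617F GLUT1/3 dKO. Its Jak2WT GLUT1/3 dKO clones were the lowest, and the Jak2V617F groups overlapped above all Jak2WT clones. Rbl1 (chr2:156987813-157046454) was at 27.1 and 27.2 FPKM in Jak2V617F GLUT1/3 dKO, against 20.5 and 18.6 in Jak2V617F GLUT1/3 WT, 21.1 and 20.2 in Jak2WT GLUT1/3 WT and 18.9 and 21.2 in Jak2WT GLUT1/3 dKO. Apart from Jak2V617F GLUT1/3 dKO, which stood above, the Rbl1 levels of neighbouring groups overlapped. Rbl2 (chr8:91796685-91850472) was at 8.96 and 8.14 FPKM in Jak2WT GLUT1/3 WT, at 5.18 and 5.65 in Jak2WT GLUT1/3 dKO, 6.52 and 6.87 in Jak2V617F GLUT1/3 WT and 4.81 and 6.10 in Jak2V617F GLUT1/3 dKO. Both dKO groups overlapped at the low end, and Jak2WT GLUT1/3 WT was highest. The strand setting of the counting is not given in the sources used here, so reads of a gene and an overlapping antisense gene cannot be told apart. By GENCODE (GRCm39), Rbl2 shares 4194 exon bases with Aktip (1.54 to 3.00 FPKM), E2f8 shares 1128 with Gm2788 (0.126 to 0.269 FPKM), and Rb1 shares 488 with Rcbtb2 (1.14 to 2.05 FPKM).

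**Figure D1:**
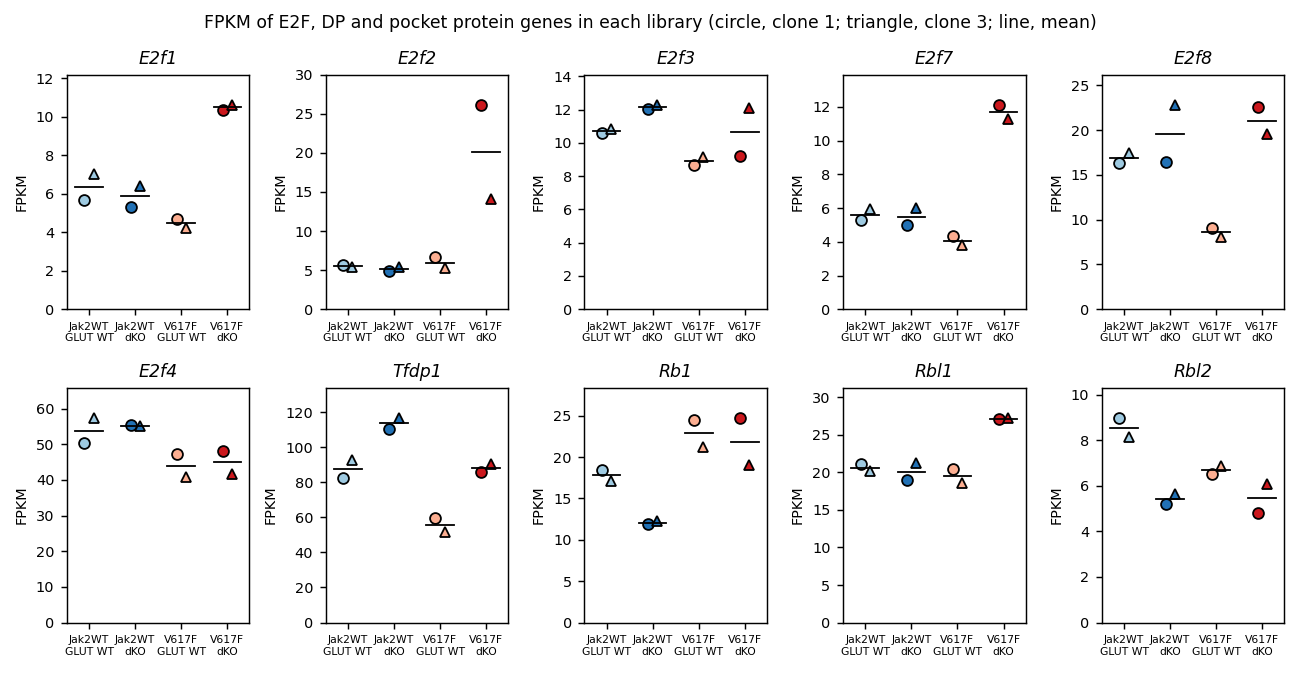
FPKM (y axis, from 0) of the 10 genes in the 8 libraries, by group (x axis, GLUT WT stands for GLUT1/3 WT), with clone 1 as a circle, clone 3 as a triangle and the group mean as a line. E2f1, E2f2, E2f7 and Rbl1 are highest in both Jak2V617F GLUT1/3 dKO clones, at 10.4 and 10.6 FPKM for E2f1.

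The first comparison asked how loss of both transporters changed the network in Jak2V617F cells. Compared with Jak2V617F GLUT1/3 WT, 6 of the 10 genes rose in Jak2V617F GLUT1/3 dKO and 0 fell (limma, also 0 at an unadjusted p below the threshold), beside 13.7% of all tested genes called higher and 16.2% called lower. E2f2 had the largest change in the fit of all libraries, with a mean of 20.1 ± 8.45 against 5.96 ± 0.992 FPKM (SD, n = 2), a 3.37-fold ratio and a log2 change of 1.55 (SE 0.24, limma adjusted p = 0.00415). Without clone 1 of Jak2V617F GLUT1/3 dKO its log2 change was 1.13, below the lowest value of E2f7 under any alternative (1.25). E2f7 rose 2.87-fold (log2 change 1.32, SE 0.11, limma adjusted p = 0.000527) and E2f8 rose 2.45-fold (1.20, SE 0.15, limma adjusted p = 0.00184). E2f1 rose 2.35-fold, from 4.45 ± 0.358 to 10.5 ± 0.167 FPKM (log2 change 1.07, SE 0.12, limma adjusted p = 0.00131). Thus 2 of the 3 activating E2Fs and both atypical E2Fs rose, and E2f3 did not pass. Without clone 1 of Jak2V617F GLUT1/3 dKO, E2f3 passed as well (0.40, limma adjusted p = 0.0210), and without clone 3 it was at 0.043 and Rbl2 passed as lower (-0.41, limma adjusted p = 0.0345). Smaller increases were seen for Tfdp1, at 1.58-fold (log2 change 0.66, SE 0.10, limma adjusted p = 0.00361), and Rbl1, at 1.39-fold (0.45, SE 0.088, limma adjusted p = 0.00907). The 4 genes that did not pass were E2f3 at 0.22 (95% confidence interval -0.054 to 0.50), E2f4 at 0.030 (-0.23 to 0.29), Rb1 at -0.073 (-0.38 to 0.23) and Rbl2 at -0.26 (-0.53 to 0.0034). All 6 increases kept their direction and passed under each of 18 alternatives, with the highest adjusted p at 0.0472 for Rbl1. Of the 7 erythroid markers tested, 5 (Klf1 and 4 globin genes) were higher in this comparison, Gata1, a transcription factor of the lineage, was lower (log2 change -0.50, limma adjusted p = 0.0246) and Epor did not pass (0.14).

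In the Jak2WT background, the same knockouts left E2f1, E2f2, E2f7 and E2f8 without a detectable change, while the pocket proteins Rb1 and Rbl2 fell. Of the 10 genes, Tfdp1 was higher and Rb1 and Rbl2 were lower in Jak2WT GLUT1/3 dKO, beside 7.62% of tested genes called higher and 6.06% called lower. Rbl2, whose product p130 is the pocket protein of resting cells, fell from 8.55 ± 0.582 to 5.42 ± 0.331 FPKM (SD, n = 2, log2 change -0.57, SE 0.11, limma adjusted p = 0.0205). Rb1 fell from 17.8 ± 0.892 to 12.1 ± 0.237 FPKM (log2 change -0.52, SE 0.13, limma adjusted p = 0.0401). Tfdp1 rose 1.30-fold (log2 change 0.37, SE 0.10, limma adjusted p = 0.0482). The intervals of the remaining genes reached from -0.38 to 0.19 for E2f1, -0.65 to 0.49 for E2f2, -0.29 to 0.23 for E2f7 and -0.16 to 0.54 for E2f8. The log2 changes of E2f3, E2f4 and Rbl1 were 0.16, 0.040 and -0.038. Leaving out any of the 4 Jak2WT libraries ended all 3 calls, with adjusted p (limma) of 0.134 to 0.194 for Rb1, 0.0740 to 0.135 for Rbl2 and 0.116 to 0.252 for Tfdp1, and directions were kept.

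The third comparison asked whether Jak2V617F itself shifted the network while glucose transport was intact. In Jak2V617F GLUT1/3 WT compared with Jak2WT GLUT1/3 WT, 4 of the 10 genes were lower and 0 higher (limma, 1, Rb1, at an unadjusted p below the threshold), beside 14.9% and 15.3% of all tested genes. E2f8 was lower by -0.90 on the log2 scale (SE 0.15, limma adjusted p = 0.00529), as its mean was 8.61 ± 0.721 against 16.9 ± 0.766 FPKM (SD, n = 2). Tfdp1 was lower by -0.64 (SE 0.10, limma adjusted p = 0.00411). Smaller decreases were found for E2f1, at -0.42 (SE 0.12, limma adjusted p = 0.0360), and E2f7, at -0.38 (SE 0.11, limma adjusted p = 0.0380). Rb1 was at 0.34 (limma, adjusted p = 0.0828), E2f4 at -0.29 (adjusted p = 0.0937), Rbl2 at -0.31 (adjusted p = 0.0762), E2f3 at -0.24, E2f2 at 0.083 and Rbl1 at -0.076, and none of these passed. At the same total FPKM and with voom on recovered reads, 6 genes were lower, as E2f4 (adjusted p = 0.00925 by limma and 0.0107 by voom) and Rbl2 (0.0346 and 0.0211) passed too. Lower calls over all tested genes went from 1765 in the main fit to 2930 at the same total FPKM and 2655 with voom. Higher calls went from 1812 to 1223 and 1399. Scaling to the same total moved the median of all genes by -0.12. E2f8 and Tfdp1 passed under all 18 alternatives. The E2f1 call was lost without Jak2WT GLUT1/3 WT clone 3 (limma, adjusted p = 0.207) or Jak2V617F GLUT1/3 WT clone 1 (adjusted p = 0.0710) or clone 3 (adjusted p = 0.141), and the E2f7 call without any of the 4 libraries compared (adjusted p of 0.0623 to 0.199). Without clone 1 or clone 3 of Jak2V617F GLUT1/3 dKO, a group outside the comparison that shares the estimate of the spread, 7 of the 10 genes passed, with E2f3 and Rbl2 lower and Rb1 higher in addition.

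Between the dKO groups, Jak2V617F cells had more transcript of E2f1, E2f2, E2f7, Rb1 and Rbl1 and less of Tfdp1 than Jak2WT cells. That is 5 of 10 genes higher and 1 lower, beside 7.12% and 9.96% of all tested genes. The ratio was 3.88 for E2f2 (log2 difference 1.71, SE 0.24, limma adjusted p = 0.00488), 2.13 for E2f7 (0.97, SE 0.11, adjusted p = 0.00225) and 1.78 for E2f1 (0.74, SE 0.12, adjusted p = 0.00806). Rb1 was 1.81-fold higher (log2 difference 0.79, SE 0.13, limma adjusted p = 0.00796). Rbl1 differed by 0.42 (SE 0.088, limma adjusted p = 0.0195) and Tfdp1 by -0.36 (SE 0.10, limma adjusted p = 0.0478). E2f8, which rose in Jak2V617F cells upon dKO, was at 0.11 here (95% confidence interval -0.24 to 0.46), with Rbl2 at 0.0014, E2f3 at -0.18 and E2f4 at -0.30. Without Jak2V617F GLUT1/3 dKO clone 3, E2f3 passed as lower (-0.37, limma adjusted p = 0.0345). Without Jak2WT GLUT1/3 dKO clone 1, E2f2 and E2f7 passed and the other 4 did not (limma, adjusted p of 0.0587 to 0.145). The Rbl1 call was also lost without clone 1 (adjusted p = 0.0653) or clone 3 (adjusted p = 0.0504) of Jak2V617F GLUT1/3 dKO, and the Tfdp1 call without each of the 4 dKO clones and each of the 2 Jak2WT GLUT1/3 WT clones (adjusted p of 0.0723 to 0.192).

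Whether dKO acted differently in the 2 backgrounds was tested as an interaction, the log2 change upon dKO in Jak2V617F minus that in Jak2WT. It passed for 5 of the 10 genes, all with a larger change in Jak2V617F, and for 0 in the opposite direction (limma, also 0 at an unadjusted p below the threshold), beside 4.72% and 5.91% of all tested genes. The difference was 1.63 for E2f2 (SE 0.35, limma adjusted p = 0.0314), 1.35 for E2f7 (SE 0.16, adjusted p = 0.00881), 1.17 for E2f1 (SE 0.17, adjusted p = 0.0146), 1.01 for E2f8 (SE 0.21, adjusted p = 0.0314) and 0.49 for Rbl1 (SE 0.12, adjusted p = 0.0483). For Rb1 and Rbl2, which fell upon dKO in Jak2WT, the interaction was 0.45 (limma, adjusted p = 0.152) and 0.31 (adjusted p = 0.235), neither of which passed. For Rb1 it passed with voom on recovered reads (0.65, adjusted p = 0.0304) and without Jak2V617F GLUT1/3 dKO clone 3 (0.63, limma, adjusted p = 0.0441). Tfdp1 was higher upon dKO in both backgrounds, with an interaction of 0.28 (limma, adjusted p = 0.222) that passed at the same total FPKM (0.47, adjusted p = 0.0355) and with voom (0.44, adjusted p = 0.0338). Positive interaction calls over all tested genes went from 558 in the main fit to 1177 at the same total FPKM and 1321 with voom. Negative calls went from 698 to 393 and 575. Scaling to the same total moved the median interaction of all genes by 0.12. In the main fit, the interaction of E2f3 was 0.060 and that of E2f4 was -0.011. Without Jak2WT GLUT1/3 WT clone 3, 0 of the 5 passed, with E2f7 at an adjusted p (limma) of 0.0555 and E2f1 at 0.0662. Without Jak2WT GLUT1/3 dKO clone 1, E2f7 passed and E2f1 was at 0.0603. Fewer genes also passed without Jak2WT GLUT1/3 WT clone 1 (2), Jak2V617F GLUT1/3 WT clone 1 (2) or clone 3 (2), Jak2WT GLUT1/3 dKO clone 3 (3) and Jak2V617F GLUT1/3 dKO clone 1 (3).

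**Figure D2:**
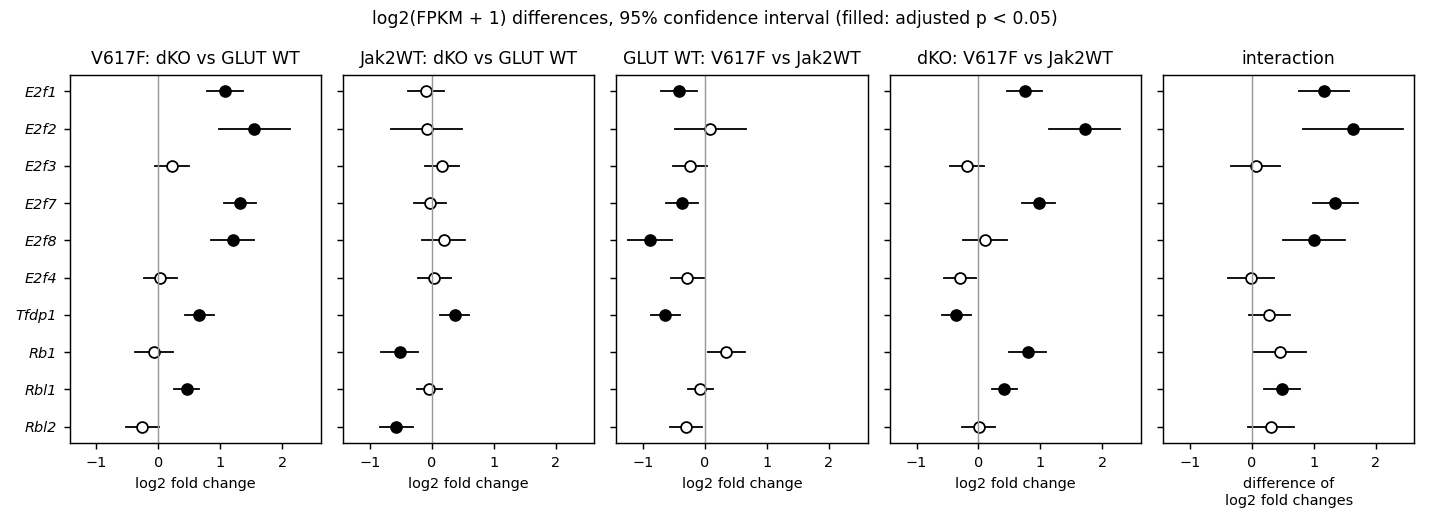
log2(FPKM + 1) differences of the 10 genes (x axis, in the last panel the difference between 2 log2 fold changes) in the 5 comparisons, with 95% confidence intervals as lines and filled points at an adjusted p below the threshold. In the first panel E2f1, E2f2, E2f7, E2f8, Tfdp1 and Rbl1 are filled to the right of 0, and in the second Rb1 and Rbl2 are filled to the left.

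In the Jak2V617F GLUT1/3 dKO clones, E2f4 held a smaller share of the E2F pool and E2f2 a larger one than in any other library. E2f4 made up 54.4% ± 1.02 of the summed FPKM of the 6 E2F genes in Jak2WT GLUT1/3 WT, 53.5% ± 3.45 in Jak2WT GLUT1/3 dKO, 57.8% ± 0.975 in Jak2V617F GLUT1/3 WT and 37.8% ± 0.387 in Jak2V617F GLUT1/3 dKO (SD, n = 2). In Jak2V617F GLUT1/3 dKO, E2f2 accounted for 20.3% and 13.0% (clones 1 and 3), whereas it was between 4.99% and 8.26% in the other 6 libraries. The FPKM of E2f4 was 4.65 and 3.92 times that of E2f1 in these clones and 8.14 to 10.4 times elsewhere. Activating E2Fs summed to 41.3 ± 6.23 FPKM in Jak2V617F GLUT1/3 dKO and 19.3 ± 0.978 in Jak2V617F GLUT1/3 WT, and the atypical pair to 32.7 ± 2.68 and 12.7 ± 1.10. Among the pocket proteins, Rbl2 had its smallest share, 10.1% ± 2.23, in Jak2V617F GLUT1/3 dKO and its largest, 18.2% ± 0.425, in Jak2WT GLUT1/3 WT. The FPKM of Rbl1 was 2.35 and 2.48 times that of Rbl2 in Jak2WT GLUT1/3 WT, and was 3.65 and 3.76 times in Jak2WT GLUT1/3 dKO, 3.14 and 2.70 in Jak2V617F GLUT1/3 WT and 5.63 and 4.46 in Jak2V617F GLUT1/3 dKO. In both backgrounds, the ratio of Rbl1 to Rbl2 was thus higher in each dKO clone than in either GLUT1/3 WT clone. These shares are described and were not tested.

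**Figure D3:**
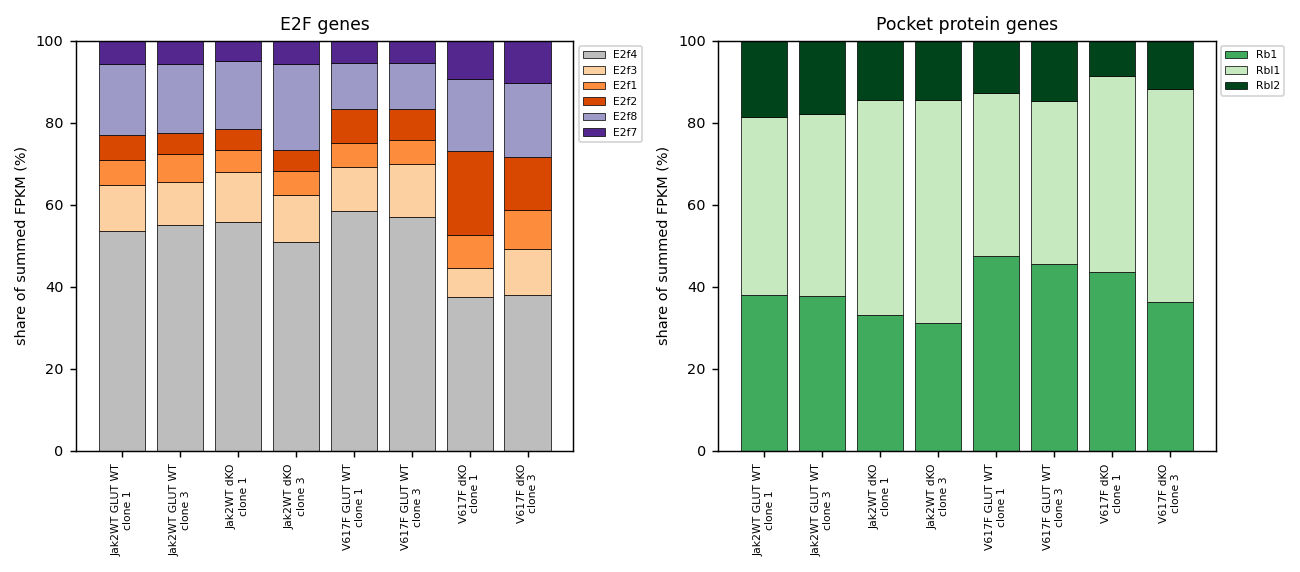
Share (%, y axis) of each gene in the summed FPKM of the 6 E2F genes (left) and of the 3 pocket protein genes (right), in each of the 8 libraries (x axis). The E2f4 segment is shortest in the Jak2V617F GLUT1/3 dKO clones, at a mean of 37.8%.

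Upstream of the pocket proteins, the cyclin E genes and Cdk2 rose upon dKO in Jak2V617F cells. Of 16 listed cyclins, CDKs and inhibitors, 13 were tested, since Ccnd1, Cdkn1c and Cdkn2a were too low. Upon dKO in Jak2V617F cells, 6 of the 13 rose and 1 fell (13.7% and 16.2% of all tested genes), with a median log2 change of 0.27 beside -0.019 over all tested genes. Ccne1, the cyclin that activates CDK2 at S-phase entry, was at 20.9 and 17.8 FPKM in Jak2V617F GLUT1/3 dKO, 6.05 and 4.05 in Jak2V617F GLUT1/3 WT, 16.4 and 18.4 in Jak2WT GLUT1/3 WT and 19.6 and 19.8 in Jak2WT GLUT1/3 dKO. It rose by 1.77 (SE 0.16, limma adjusted p = 0.000583) and its relative Ccne2 by 1.39 (SE 0.15, adjusted p = 0.00114). The Jak2V617F GLUT1/3 WT clones were thus the ones that stood apart for Ccne1. Cdk2 (1.12) and Ccnd3 (0.88) rose as well, and so did 2 inhibitor genes of the INK4 family, Cdkn2c (0.41, SE 0.11, limma adjusted p = 0.0290) and Cdkn2d (0.49, SE 0.13, limma adjusted p = 0.0259). In this comparison these 4 genes were not followed singly through the alternatives. With the other E2F and DP genes and the DREAM and MuvB partners (23 tested regulators), 11 rose in the main fit. That count was 8 without the filter and 6 with only the 2 groups fitted. Cdkn1b, encoding the CDK inhibitor p27, was the gene that fell, from 43.8 and 50.9 to 21.7 and 27.6 FPKM (log2 change -0.92, SE 0.13, limma adjusted p = 0.00299). It fell in Jak2WT as well, from 54.1 and 47.5 to 22.4 and 23.2 FPKM (-1.12, SE 0.13, limma adjusted p = 0.00576). In Jak2WT, 0 of the 13 genes rose (limma, 4 were higher at an unadjusted p below the threshold) and 3 fell (7.62% and 6.06% of all tested genes), among them Cdkn2d (-0.51, SE 0.13, limma adjusted p = 0.0400). This Jak2WT call of Cdkn2d was lost without any of the 4 Jak2WT libraries (limma, adjusted p of 0.0948 to 0.210) or either Jak2V617F GLUT1/3 WT clone (0.0564 to 0.0568), and that of Cdkn1b in Jak2WT without Jak2WT GLUT1/3 WT clone 1 (0.0529).

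Between the GLUT1/3 WT groups, 5 of the 13 were lower and 1 higher in Jak2V617F (14.9% and 15.3% of all tested genes). The G1 kinase gene Cdk6 was at 25.9 and 21.6 FPKM in Jak2V617F GLUT1/3 WT and 63.6 and 70.2 in Jak2WT GLUT1/3 WT (log2 difference -1.46, SE 0.12, limma adjusted p = 0.000472), and Ccne1 was lower by -1.62 (SE 0.16, adjusted p = 0.000890). The D-type cyclin Ccnd2 was higher by 0.70 (SE 0.16, limma adjusted p = 0.0147), a call lost without either Jak2WT GLUT1/3 WT clone or Jak2V617F GLUT1/3 WT clone 1 (limma, adjusted p of 0.0620 to 0.0790). Between the dKO groups, 3 were higher and 1 lower (7.12% and 9.96% of all tested genes). Cdkn2d was higher by 0.89 (SE 0.13, limma adjusted p = 0.00488), the D-type cyclin Ccnd3 by 0.59 (SE 0.11, adjusted p = 0.0126), and Cdk6 was lower by -1.59 (SE 0.12, adjusted p = 0.000443). The Ccnd3 call was lost without either Jak2WT GLUT1/3 dKO clone (limma, adjusted p of 0.0545 to 0.0874). The interaction passed for 5 of the 13, all in the positive direction (4.72% of all tested genes), led by Ccne1 at 1.60 (SE 0.23, limma adjusted p = 0.0130) and Cdk2 at 1.01 (SE 0.11, adjusted p = 0.00867). Without Jak2WT GLUT1/3 WT clone 1 or clone 3 or Jak2WT GLUT1/3 dKO clone 1, the interaction passed for 0 of all 23 tested regulators, with adjusted p (limma) of 0.0525 to 0.0666 for Ccne1 and 0.0502 to 0.0570 for Cdk2. Cdk2 was at 18.1 and 20.2 FPKM in Jak2V617F GLUT1/3 dKO and 8.45 and 8.08 in Jak2V617F GLUT1/3 WT, against 15.7 to 17.5 in the 4 Jak2WT libraries.

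Of the 3 other E2F and DP genes, Tfdp2, encoding a second DP partner, rose upon dKO in Jak2V617F by 0.36 (SE 0.079, limma adjusted p = 0.0142, but 0.0627 without Jak2V617F GLUT1/3 WT clone 3 and 0.0808 with only both groups fitted), and the p130-binding E2f5 fell by 0.62 on the log2 scale (SE 0.088, adjusted p = 0.00293). E2f5 was at 2.99 and 3.49 FPKM in Jak2V617F GLUT1/3 dKO, 5.45 and 5.52 in Jak2V617F GLUT1/3 WT, 6.53 and 6.63 in Jak2WT GLUT1/3 WT and 7.90 and 8.44 in Jak2WT GLUT1/3 dKO, without overlap between groups. Its interaction was -0.89 (SE 0.12, limma adjusted p = 0.0130). E2f6, a repressor that works without pocket proteins, was higher in Jak2WT GLUT1/3 dKO (0.63, SE 0.12, limma adjusted p = 0.0182) and in Jak2V617F GLUT1/3 WT (0.54, SE 0.12, adjusted p = 0.0139) than in Jak2WT GLUT1/3 WT. The first E2f6 call was lost without the filter (limma, adjusted p = 0.0616) and without any of the 4 Jak2WT libraries (0.0893 to 0.113), and the second without either Jak2WT GLUT1/3 WT clone or Jak2V617F GLUT1/3 WT clone 1 (0.0664 to 0.0760). Of the 7 DREAM and MuvB partners, 4 rose upon dKO in Jak2V617F (13.7% of all tested genes) and 0 in Jak2WT (7.62%, limma, 1 was higher at an unadjusted p below the threshold), and 3 were lower in Jak2V617F GLUT1/3 WT than in Jak2WT GLUT1/3 WT (14.9%). Between the dKO groups, 0 of the 7 passed (limma, 3 at an unadjusted p below the threshold, all higher in Jak2V617F). Over all tested genes, 7.12% were called higher and 9.96% lower in that comparison. Mybl2, the B-MYB factor that joins MuvB in S phase, was at 31.7 and 31.7 FPKM in Jak2V617F GLUT1/3 dKO, 12.0 and 9.40 in Jak2V617F GLUT1/3 WT, 18.1 and 20.7 in Jak2WT GLUT1/3 WT and 23.3 and 25.8 in Jak2WT GLUT1/3 dKO. It was highest in Jak2V617F GLUT1/3 dKO, and the change upon dKO was 1.49 (SE 0.12, limma adjusted p = 0.000525). The mitotic factor Foxm1 rose by 0.70 (SE 0.11, limma adjusted p = 0.00371). The interaction was 1.16 for Mybl2 (limma, adjusted p = 0.0154) and 0.86 for Foxm1 (adjusted p = 0.0197). These calls and that of E2f5 were lost without any of the 3 Jak2WT libraries named above for Ccne1 (limma, adjusted p of 0.0539 to 0.0702 for Mybl2, 0.0683 to 0.0821 for Foxm1 and 0.0553 to 0.0672 for E2f5), and that of Foxm1 also without Jak2V617F GLUT1/3 WT clone 1 (0.0619).

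Downstream, the E2F target genes of DNA replication rose nearly throughout upon dKO in Jak2V617F. Of 26 targets, 25 rose and 0 fell (limma, also 0 at an unadjusted p below the threshold), beside 13.7% and 16.2% of all tested genes, with a median log2 change of 1.16, and Ezh2 at 0.13 was the gene that did not pass. Cdc6, which loads the replicative helicase, was at 20.3 and 21.8 FPKM in Jak2V617F GLUT1/3 dKO, 4.98 and 3.00 in Jak2V617F GLUT1/3 WT, 10.7 and 10.5 in Jak2WT GLUT1/3 WT and 15.1 and 18.3 in Jak2WT GLUT1/3 dKO. Its change was 2.17 (SE 0.18, limma adjusted p = 0.000519), and that of Uhrf1, which maintains DNA methylation at replication, was 1.82 (SE 0.16, adjusted p = 0.00055). In Jak2WT, 0 of the 26 passed upon dKO (limma, 1 at an unadjusted p below the threshold), beside 7.62% of all tested genes called higher and 6.06% lower. With voom on recovered reads 2 of the 26 passed, beside 2605 of all 11818 tested genes. In the main fit, the log2 changes of the 26 lay between -0.28 and 0.60, with a median of 0.11. The levels in Jak2V617F GLUT1/3 WT were low at the outset, since 24 of the 26 were lower there than in Jak2WT GLUT1/3 WT and 0 higher (limma, also 0 at an unadjusted p below the threshold), beside 14.9% and 15.3% of all tested genes, with a median of -0.92. Rrm2, a subunit of ribonucleotide reductase, was at 27.6 and 22.0 FPKM in Jak2V617F GLUT1/3 WT and 66.7 and 70.7 in Jak2WT GLUT1/3 WT (log2 difference -1.44, SE 0.13, limma adjusted p = 0.000721). The helicase subunit gene Mcm4 was lower by -1.32 (SE 0.11, limma adjusted p = 0.000490).

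When both groups lacked the transporters, fewer target genes differed between backgrounds, as 5 of the 26 were higher in Jak2V617F and 0 lower (limma, 10 higher and 0 lower at an unadjusted p below the threshold), beside 7.12% and 9.96% of all tested genes, with a median of 0.22. The primase gene Prim1 was higher by 0.54 (SE 0.12, limma adjusted p = 0.0227) and the sliding clamp gene Pcna by 0.51 (SE 0.13, adjusted p = 0.0342). This count was 0 without Jak2WT GLUT1/3 dKO clone 1 or Jak2V617F GLUT1/3 dKO clone 3, 1 without Jak2V617F GLUT1/3 dKO clone 1, and 2 without Jak2WT GLUT1/3 dKO clone 3 or either Jak2WT GLUT1/3 WT clone. The interaction passed for 24 of the 26 targets, all positive (4.72% of all tested genes), with a median of 1.06 and the largest value for Mcm4 (1.58, SE 0.15, limma adjusted p = 0.00867), followed by Cdc6 (1.57, SE 0.26, adjusted p = 0.0174). Without Jak2WT GLUT1/3 WT clone 3 the count was 0, and without Jak2WT GLUT1/3 WT clone 1 or Jak2WT GLUT1/3 dKO clone 1 it was 4. Of the 22 targets with a RefSeq promoter window, 11 held the E2F motif.

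**Figure D4:**
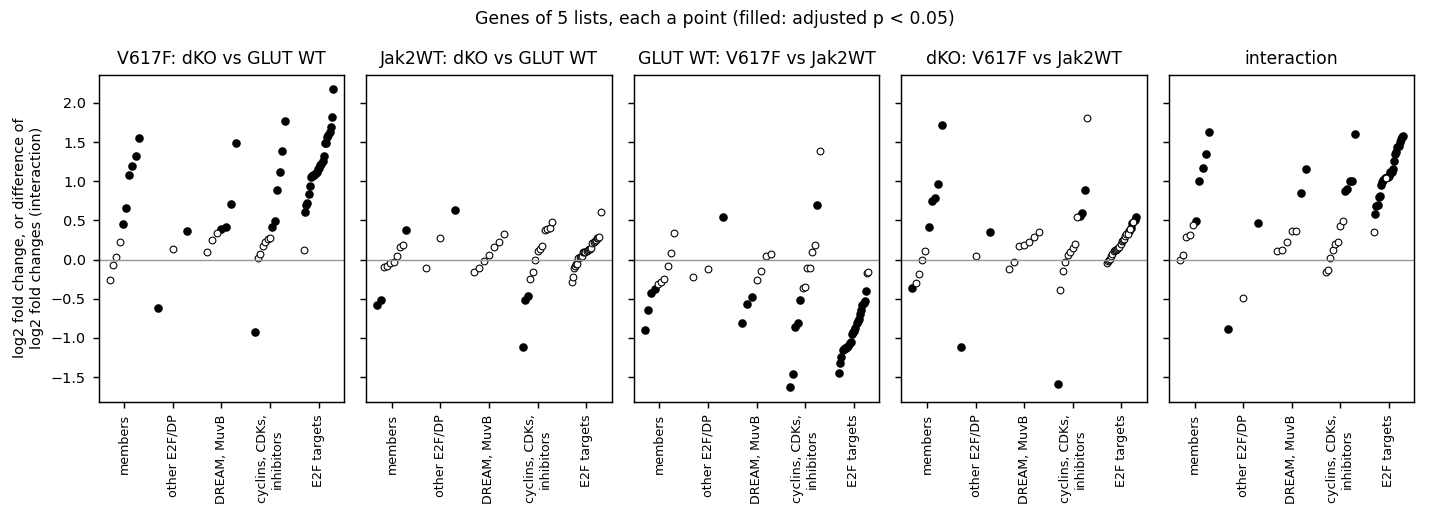
log2 fold changes (y axis, in the last panel the difference between 2 log2 fold changes) of the genes of 5 lists (x axis) in the 5 comparisons, 1 point a gene, filled at an adjusted p below the threshold. Of the 26 E2F targets, 25 are filled above 0 in the first panel, none is filled in the second and 24 are filled below 0 in the third.

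Across the 8 libraries, the E2f1 level ran most closely with E2f7 among the 10 genes, with a Pearson r of 0.986 on the log2(FPKM + 1) scale, followed by Rbl1 at 0.927, E2f2 at 0.827 and E2f8 at 0.773. Tfdp1 was at 0.464, E2f3 at 0.296, Rb1 at 0.133, E2f4 at -0.056 and Rbl2 at -0.350. Outside the 10 genes, the highest values over all tested genes included those of Pfkfb1 (0.993), BC055324 (0.985), Zw10 (0.974) and Mir6362 (0.974). Pfkfb1 was low, between 0.743 and 1.70 FPKM, and Mir6362 was listed at 0 in 3 libraries. The 8 points share their 4 groups, so these values describe the pattern over the groups and were not tested.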

How the data were processed

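RNA sequencing of 8 libraries of 32D cells was analysed, 2 clones in each of 4 groups assigned from the labels. The authors deposited FPKM values per gene, made from reads trimmed with fastp 1.0.1, aligned to mm39 with HISAT2 2.2.1 and counted with featureCounts 2.0.6, as the methods and the submitters' processing notes state. The annotation version, strand setting and library total are not given in the sources used here. All library columns were used, and 0 were left out. Multiplied by gene length, 100% of the FPKM values fell on whole steps (tolerance 0.01), and the steps were taken as reads for an alternative test. Depth was 16846011 to 48884329 recovered reads per library. Clones within groups differed beyond read sampling (chi-square per gene 7.21 to 30.0), and each was counted as a sample. The paper calls the clones independent but lists the same Slc2a1 deletion for every dKO clone of a background. Whether dKO clones of a background share a founder was not tested.

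The 11818 genes that reached an FPKM of 1 in 2 or more libraries were kept, and log2(FPKM + 1) was fitted with limma 3.58.1 in R 4.3.3, with 1 mean per group and an intensity trend (4 residual and 3.34 prior degrees of freedom). Fold changes on this scale understate those of low genes. Benjamini-Hochberg adjustment ran over every tested gene in each of 5 comparisons, and an adjusted p below 0.05 was called. A permutation test of 2 against 2 clones cannot go below an exact two-sided p of 0.33, so none was used. Alternatives were another pseudocount (0.1), no filter, a filter on the mean, other scalings, voom on recovered reads, no trend, a robust fit, the compared groups alone, clone number as a replicate block and leaving out each library.

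The 10 genes and all lists were chosen with earlier results of these data known, and fold changes of lists are described by counts and medians. Named were all 10 genes, Slc2a1 and Slc2a3, up to 2 genes per direction with the largest changes among those passing in each pathway list and comparison, the 5 genes most correlated with E2f1, and markers. A gene among those 5 and a transgene common to all cells are not reported here. Ezh2, genes overlapping the 10, Cdkn2b, and rising cyclin, CDK and inhibitor genes other than Ccne1 and Ccne2 were named after their values were seen. The same holds for levels of single markers, beside the marker sums and in the closing section. Motifs were read from RefSeq promoter windows (GRCm38.p6) and placed in GRCm39 by perfect match, with GENCODE vM39 for exons. Figures were drawn with matplotlib 3.10.9 in Python 3.11.15. The fit was tested on simulated data.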

Additional observations from a re-analysis of the deposited data

Results flagged for a closer look

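For 13 of the genes named above, the change upon dKO differed between backgrounds by the interaction term of limma (log2 change in Jak2V617F minus that in Jak2WT). Among the E2F and pocket protein genes these were E2f1 (1.17), E2f2 (1.63), E2f7 (1.35), E2f8 (1.01) and Rbl1 (0.49). In the surrounding network they were Tfdp2 (0.47), E2f5 (-0.89), Mybl2 (1.16), Foxm1 (0.86), Ccne1 (1.60), Cdk2 (1.01), Mcm4 (1.58) and Cdc6 (1.57). The call of Tfdp2 (limma, adjusted p = 0.0405) was lost in 11 of 17 alternatives, among them leaving out any of the 8 libraries (0.0572 to 0.147), the call of Rbl1 was likewise lost without any of the 8, and those of the other genes were lost without 1 to 6 of the libraries. E2f5 was the gene of the 13 with a negative value. Groups held 2 clones, so no search for single outlying libraries was made.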

How the results depend on the processing

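Counts of genes that passed are given for the 10 E2F, DP and pocket protein genes, for the 23 tested regulators (other E2F and DP genes, DREAM and MuvB partners, cyclins, CDKs and inhibitors) and for the 26 E2F targets. For Jak2V617F GLUT1/3 dKO relative to Jak2V617F GLUT1/3 WT, the counts of 6 genes and 25 targets stayed within 1.5 times under every alternative, and 13 regulators became 8 with only the 2 groups fitted and 8 to 14 when a library was left out (8 without Jak2V617F GLUT1/3 WT clone 3). Upon dKO in Jak2WT, 3 genes became 0 without the filter, 1 without the trend and 0 to 3 with a library left out. There, 4 regulators became 1 without the filter, 7 with voom, 8 with 2 groups and 0 to 5 with a library left out (0 without Jak2WT GLUT1/3 WT clone 1, 1 without any other Jak2WT library), and 0 targets became 2 with voom, 1 with 2 groups and 0 to 1 (1 without either Jak2V617F GLUT1/3 WT clone). Between GLUT1/3 WT groups, 4 genes became 2 without the filter and 2 to 7 with a library left out, and 10 regulators became 16 at the same total FPKM and 6 to 13 (6 without either Jak2WT GLUT1/3 WT clone). Between dKO groups, leaving out a library gave 2 to 6 genes, 3 to 9 regulators (3 without either Jak2WT GLUT1/3 dKO clone, 10 with voom) and 0 to 5 targets (0 without the filter, 10 with voom, 0 with 2 groups). For the interaction, no filter left 1 of 5 genes, 2 of 9 regulators and 9 of 24 targets, and leaving out a library gave 0 to 5, 0 to 10 and 0 to 24 (0 regulators without either Jak2WT GLUT1/3 WT clone or Jak2WT GLUT1/3 dKO clone 1, 5 without Jak2WT GLUT1/3 dKO clone 3 or Jak2V617F GLUT1/3 WT clone 1). Fits without a filter test more genes and fits without a library have fewer samples, and otherwise the cause was not tested.

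Sign changes occurred in differences that had not passed. At the same total, with voom or with median ratio scaling, they were Rb1 upon dKO in Jak2V617F (0.017 and 0.025), E2f4 upon dKO in Jak2WT (-0.057 and -0.014), E2f2 between GLUT1/3 WT groups (-0.049 and -0.035) and E2f4 in the interaction (0.18, 0.15 and, for median ratio, 0.029). With a library left out, upon dKO in Jak2V617F, E2f4 ran from -0.075 to 0.13 and Rb1 from -0.25 to 0.11. Upon dKO in Jak2WT, E2f1 ran from -0.23 to 0.042, E2f4 from -0.050 to 0.13, E2f7 from -0.14 to 0.089, E2f8 from -0.033 to 0.41 and Rbl1 from -0.12 to 0.040. E2f2 between GLUT1/3 WT groups ran from -0.063 to 0.23. Between dKO groups, E2f8 ran from -0.11 to 0.33, Rbl2 from -0.14 to 0.15 and Slc2a3 from -0.53 to 1.04. In the interaction, E2f3 ran from -0.12 to 0.24, E2f4 from -0.12 to 0.094 and Slc2a3 from -1.46 to 0.10.

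Without the filter, calls were also lost for Slc2a3 upon dKO in Jak2V617F (limma, adjusted p = 0.0557), Cdkn2d upon dKO in Jak2WT (0.110), Ccnd2 between GLUT1/3 WT groups (0.0560), Prim1 (0.0661) and Pcna (0.0954) between dKO groups and Ccne1 (0.0501), Mybl2 (0.0514), Foxm1 (0.0626), Tfdp2 (0.0791) and Cdc6 (0.0657) in the interaction. Regulators higher upon dKO in Jak2V617F went from 11 to 8. In that comparison Cdk2, Ccnd3, Cdkn2c and Cdkn2d were not followed singly. Among the 10 genes, the filter's absence ended the calls of Rb1 (limma, adjusted p = 0.110), Rbl2 (0.0689) and Tfdp1 (0.105) upon dKO in Jak2WT, E2f1 (0.101) and E2f7 (0.0985) between GLUT1/3 WT groups, Tfdp1 (0.0973) between dKO groups and E2f1 (0.0512), E2f2 (0.107), E2f8 (0.0968) and Rbl1 (0.0876) in the interaction. Without the trend, Rb1 (limma, adjusted p = 0.0535), Tfdp1 (0.0637) and Cdkn2d (0.0533) upon dKO in Jak2WT, Tfdp1 between dKO groups (0.0638) and Rbl1 (0.0657) and Tfdp2 (0.0520) in the interaction did not pass, and at the same total Tfdp1 upon dKO in Jak2WT did not (0.0508). With only the compared groups fitted, E2f1 between GLUT1/3 WT groups (limma, adjusted p = 0.0588), Rbl1 (0.0594) and Tfdp1 (0.0647) between dKO groups, Tfdp2 upon dKO in Jak2V617F (0.0808) and Prim1 (0.0790) and Pcna (0.0601) between dKO groups no longer passed. Regulators higher upon dKO in Jak2V617F went from 11 to 6 in that fit, and genes not followed singly are missing from this list.

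Scaling to the same total moved the median of all genes by -0.12 (GLUT1/3 WT groups) and 0.12 (interaction), and the share of calls that were higher went from 45.7% to 60.2% upon dKO in Jak2V617F, 55.7% to 33.9% upon dKO in Jak2WT, 50.7% to 29.4% between GLUT1/3 WT groups and 44.4% to 75.0% in the interaction. With voom these shares were 59.2%, 39.1%, 34.5% and 69.7%.

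Clone numbers are not stated to mark a shared batch, and clone differences correlated between groups at -0.254 to 0.152 across genes. With clone number as a replicate block, the targets between dKO groups went from 5 to 3. Tfdp1 upon dKO in Jak2WT (adjusted p = 0.0745, limma) and between dKO groups (0.0739), E2f7 between GLUT1/3 WT groups (0.0542), Rbl1 (0.0754) and Tfdp2 (0.0628) in the interaction and Pcna between dKO groups (0.0541) no longer passed. The other genes followed singly kept their calls. Regulators lower upon dKO in Jak2WT went from 3 to 2 and those with a positive interaction from 8 to 6. With 2 clones a group, these calls rest on few samples, and the effect of depth on them was not tested.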

Other observations

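The Jak2V617F GLUT1/3 dKO clones differed from each other in several genes in the same direction as in E2f2, which was at 26.1 FPKM in clone 1 and 14.2 in clone 3. The adult beta-globin gene Hbb-bs was at 2209 FPKM in clone 1 and 1437 in clone 3, and Hba-a1 at 2007 and 993. The platelet factor gene Pf4 was at 28.2 and 2.03 FPKM, and Cdkn2b, encoding the INK4 inhibitor p15, at 12.1 and 2.25. E2f1 (10.4 and 10.6 FPKM) and Rbl1 (27.1 and 27.2 FPKM) were alike in the same 2 clones. These genes were picked after their values were seen, with 1 library per clone, so the differences between clones have no replicate check.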
